A study of Mus musculus with 15 samples.

Results

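Fetal gut lacking both Casp8 and Mlkl was compared with fetal gut lacking Mlkl alone. The members of the comparison are 10 of the 15 RNA-seq libraries of the series, chosen by genotype label and not by any measured value: 5 labelled Casp8 MLKL double knockout (here knockout) and 5 labelled Casp8 wildtype MLKL knockout (here wildtype). All were prepared from mouse small intestine at E16.5, an age in days of gestation, and the labels mark the tissue of both groups as normal. The remaining 5 libraries, from embryos with a Casp8 C362A knockin on the same Mlkl knockout background (here C362A) and tissue marked as inflamed, entered the fit to estimate the spread and are quoted beside some values. Every animal lacked Mlkl, so the comparison asks what loss of caspase-8 does to the transcripts of tissue in which Mlkl is already missing. There was no group with intact Mlkl, and the labels give no strain, litter or age beyond the embryonic day. They also do not say whether the libraries of a genotype came from separate animals, so the p-values measure only the spread between these libraries.

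Caspase-8 is a cysteine protease that is recruited through the adaptor Fadd to death receptors such as Fas and the TNF receptor, where it starts apoptosis. Together with its inactive homolog cFLIP (gene Cflar) it also cleaves the kinases Ripk1 and Ripk3 and so holds back necroptosis, a lytic death carried out by the pseudokinase Mlkl. Mice without Casp8 die before birth, and removal of Mlkl or Ripk3 is known to let them develop further. In the gut, caspase-8 is best known for keeping epithelial cells, Paneth cells among them, from dying by necroptosis.

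Libraries held 31896399 to 38532127 counts, and 18370 of 36528 gene IDs had enough counts to be tested. Knockout libraries resembled each other no more than they resembled wildtype libraries: Pearson's r of log2 CPM (counts scaled to a library of 1000000) across genes was 0.978 to 0.992 between pairs of knockout libraries and 0.979 to 0.993 between a knockout and a wildtype library. The biological coefficient of variation, the relative spread between libraries beyond counting noise, was 0.153 in knockout, 0.172 in wildtype and 0.195 in C362A. Y-linked genes were expressed in 4 of 5 knockout, 4 of 5 wildtype and 2 of 5 C362A libraries, and a term for them in the fit left 3 calls (Casp8, Cxcl10 and Slamf8). Knockout replicate 5 stood apart in genes of other organs: the summed level of the adrenal, kidney and gonad markers was 122 CPM there, against 33.8 to 44.2 CPM in the other knockout libraries and 40.5 to 50.2 CPM in wildtype.

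Casp8 transcripts fell to 20.5% of the wildtype level and were not absent. Casp8 (Entrez 12370, chr1:58795233-58847503, GRCm38) was at 14.5, 16.54, 13.5, 12.2 and 15.2 CPM in knockout replicates 1 to 5 and at 67.3, 68.9, 77.5, 74.3 and 62.3 CPM in wildtype replicates 1 to 5. Every knockout library lay far below every wildtype library. The log2 fold change was -2.28 (SE 0.08, 95% interval -2.46 to -2.11), and edgeR's quasi-likelihood test, adjusted by Benjamini-Hochberg over all genes tested, gave 2.55e-11 as adjusted p. An exact two-sided permutation test on CPM gave p = 0.00794, the smallest that 5 against 5 libraries allow. Knockout libraries still held 390 to 608 Casp8 counts each, and the counts are per gene, so which exons those reads cover was not analysed here. On the deposited scale per transcript length, Casp8 fell from 22.5 ± 1.96 to 4.61 ± 0.517 RPKM (SD, n = 5 each).

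Besides Casp8, 6 genes passed the test in the fit of all 15 libraries, and none of them with only the 10 compared libraries. Cxcl10, Slamf8, Clec4n, Mmp9 and Ccn1 were higher in the knockout and Ddit4 was lower. In all, 7 genes were called at an adjusted p under 0.05, which is 0.0381% of those tested, with 5 higher (0.0272%) and 2 lower (0.0109%). Before adjustment, p was under 0.05 for 221 genes higher in the knockout (1.2%) and 226 lower (1.23%). The libraries of the 2 genotypes did not overlap for 68 genes that were higher in the knockout (0.37%) and 61 that were lower (0.332%), the 7 called genes among them. Over all tested genes the median log2 fold change was -0.00 and 48.2% were positive.

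**Figure D1:**
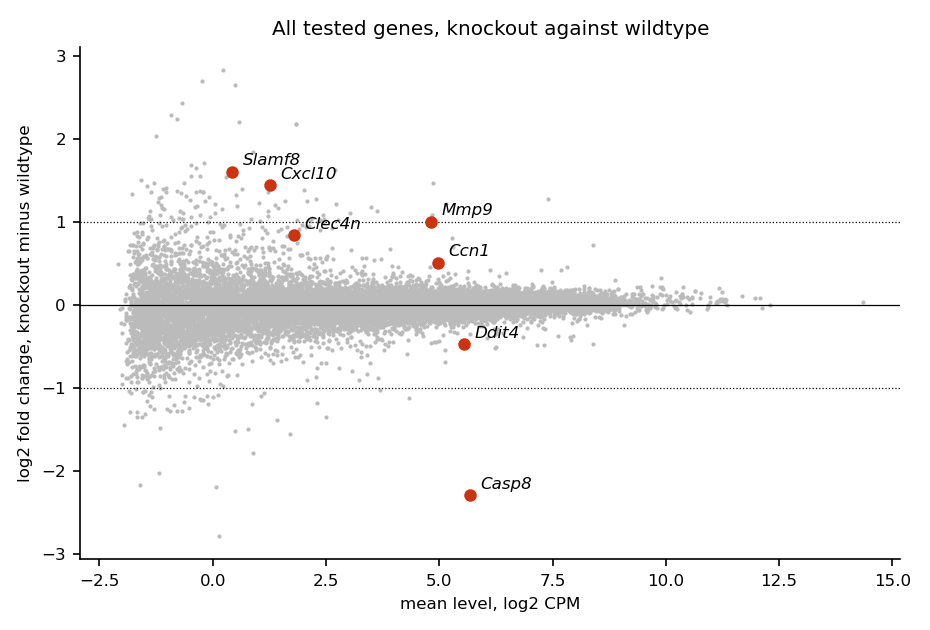
Log2 fold change of knockout minus wildtype (vertical axis) against mean level in log2 CPM (horizontal axis) for the 18370 tested genes, with the 7 called genes in red and dotted lines at 2-fold. Casp8 at -2.28 lies far below the cloud of genes at its level, and the other called genes lie at its edges, between -0.47 and 1.61.

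The comparison was precise enough to bound most genes. The 95% interval of the fold change lay within 2-fold for 16369 of 18370 genes (89.1%) and within 1.5-fold for 13545 (73.7%). Among genes above 64 CPM, 99.4% were bounded within 2-fold, against 44.8% of genes under 1 CPM. For the rest of those low genes the interval reached beyond 2-fold. The 6 calls beside Casp8 depended on the C362A libraries in the fit. With only the 10 knockout and wildtype libraries, Casp8 alone was called, and the adjusted p-values of the others were 0.0557 for Cxcl10, Slamf8, Mmp9 and Ddit4, 0.16 for Ccn1 and 0.19 for Clec4n in the same edgeR test. DESeq2 called all 7 and 6 more, 13 in all: Ccl12 and its unnamed copy, Cp, Fpr2, Dnase1l3 and Marco, all higher. Below, a gene is called or passes by edgeR's test unless DESeq2 is named.

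Of the genes that rose, Cxcl10 and Slamf8 changed most. Cxcl10 (Entrez 15945) encodes an interferon-inducible chemokine that draws T cells and NK cells, and Slamf8 (Entrez 74748) a receptor of the SLAM family found on myeloid cells. The promoter sequences used held no entry for Mmp9 and Clec4n. Shown are the promoters of the other 4 of the 6 called genes beside Casp8: Cxcl10, Slamf8, Ccn1 and Ddit4. Each is 250 bases before to 50 after the start, from RefSeq on GRCm38.p6, in the gene's own direction. Capitals mark matches, on either strand, to the motifs searched: GAAANNGAA, the spaced repeat of interferon-stimulated response elements, the NF-kB site, the AP-1 site TGANTCA, the TEAD site GGAATG, the hypoxia response core ACGTG, the TATA box TATAAA, the PU.1 site GAGGAAGT, the C/EBP-ATF response element TGATGNAA and the serum response (CArG) box.
Cxcl10 (chr5:92348840-92349139, minus strand): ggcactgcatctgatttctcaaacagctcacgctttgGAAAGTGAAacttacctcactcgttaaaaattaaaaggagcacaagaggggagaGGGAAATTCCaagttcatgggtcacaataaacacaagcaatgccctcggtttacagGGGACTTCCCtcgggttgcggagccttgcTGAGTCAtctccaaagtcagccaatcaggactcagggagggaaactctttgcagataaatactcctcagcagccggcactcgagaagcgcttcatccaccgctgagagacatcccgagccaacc
Slamf8 (chr1:172590519-172590818, minus strand): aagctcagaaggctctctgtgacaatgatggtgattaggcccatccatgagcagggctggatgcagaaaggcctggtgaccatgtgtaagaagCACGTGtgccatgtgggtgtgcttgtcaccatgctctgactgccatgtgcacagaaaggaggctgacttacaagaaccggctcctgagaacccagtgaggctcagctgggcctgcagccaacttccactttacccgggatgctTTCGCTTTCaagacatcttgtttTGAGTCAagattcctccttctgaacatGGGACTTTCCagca
Ccn1 (chr3:145649936-145650235, minus strand): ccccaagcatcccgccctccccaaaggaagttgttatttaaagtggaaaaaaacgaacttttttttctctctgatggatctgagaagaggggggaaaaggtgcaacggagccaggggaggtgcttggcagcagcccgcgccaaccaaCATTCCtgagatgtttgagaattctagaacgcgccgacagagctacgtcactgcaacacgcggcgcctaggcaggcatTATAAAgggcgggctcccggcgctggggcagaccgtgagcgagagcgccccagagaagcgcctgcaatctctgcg
Ddit4 (chr10:59951721-59952020, minus strand): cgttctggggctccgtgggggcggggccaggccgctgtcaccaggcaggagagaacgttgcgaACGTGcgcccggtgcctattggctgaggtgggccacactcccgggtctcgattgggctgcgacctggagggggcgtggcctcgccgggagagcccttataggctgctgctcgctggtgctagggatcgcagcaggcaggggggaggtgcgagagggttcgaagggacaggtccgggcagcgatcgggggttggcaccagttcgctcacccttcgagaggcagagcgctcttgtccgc

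The Cxcl10 promoter holds GAAAGTGAA from -213 to -205 relative to the start, NF-kB matches from -159 to -150 and from -103 to -94, and an AP-1 match from -74 to -68. Slamf8 holds a GAAANNGAA match on the opposite strand from -14 to -6, an AP-1 match from 10 to 16 and an NF-kB match from 37 to 46, and its hypoxia core matches on both strands overlap between -157 and -152. Ccn1 holds a TEAD match on the opposite strand from -103 to -98 and a TATA box from -25 to -20, and Ddit4 a hypoxia core from -187 to -183. Of 32851 mouse promoters of that length, 8.56% hold GAAANNGAA, 4.5% an NF-kB site, 7.81% TGANTCA, 14.7% GGAATG, 19.6% ACGTG and 13.6% TATAAA. No match to GAGGAAGT (3.2% of promoters), TGATGNAA (3.97%) or the CArG box (1.63%) lay in these windows. Such matches describe the sequence and are not evidence of binding.

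Cxcl10 was at 1.63, 2.01, 2.94, 1.62 and 1.80 CPM in the knockout libraries and at 0.839, 0.768, 0.655, 0.850 and 0.560 CPM in wildtype. The lowest knockout library was above the highest wildtype library, and knockout replicate 3 was the highest. Its log2 fold change was 1.45 (SE 0.20, 95% interval 1.02 to 1.88, adjusted p = 0.0143), from 52 to 111 counts per knockout library and 21 to 29 per wildtype library. Leaving out any 1 of the 15 libraries kept the call in 14 fits and lost it without wildtype replicate 3, at an adjusted p of 0.0564.

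Slamf8 was at 1.26, 1.01, 1.88, 1.22 and 1.48 CPM in knockout and at 0.405, 0.494, 0.446, 0.588 and 0.320 CPM in wildtype. Again no library of one group reached the range of the other. The log2 fold change was 1.61 (SE 0.23, 95% interval 1.12 to 2.11, adjusted p = 0.0144), and it was called in 12 of 15 fits without 1 library. It was lost without knockout replicate 5, wildtype replicate 1 or wildtype replicate 3.

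Clec4n, the fungal-pattern receptor Dectin-2 of macrophages and dendritic cells, was at 3.03, 3.92, 4.56, 3.68 and 3.57 CPM in knockout and at 1.82, 1.92, 2.53, 2.16 and 2.03 CPM in wildtype. The groups did not overlap, and its log2 fold change was 0.84 (SE 0.14, 95% interval 0.55 to 1.14, adjusted p = 0.0308). Mmp9, a gelatinase that digests basement membrane and is stored in neutrophils, was at 31.5, 37.6, 33.9, 25.4 and 29.7 CPM in knockout and at 12.4, 18.6, 16.2, 19.6 and 12.0 CPM in wildtype. Every knockout library was above every wildtype library, with a log2 fold change of 1.0 (SE 0.16, 95% interval 0.67 to 1.34, adjusted p = 0.0276). Mmp9 was called in 7 and Clec4n in 3 of the 15 fits without 1 library, and without knockout replicate 5 only Casp8 and Cxcl10 were called.

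**Figure D2:**
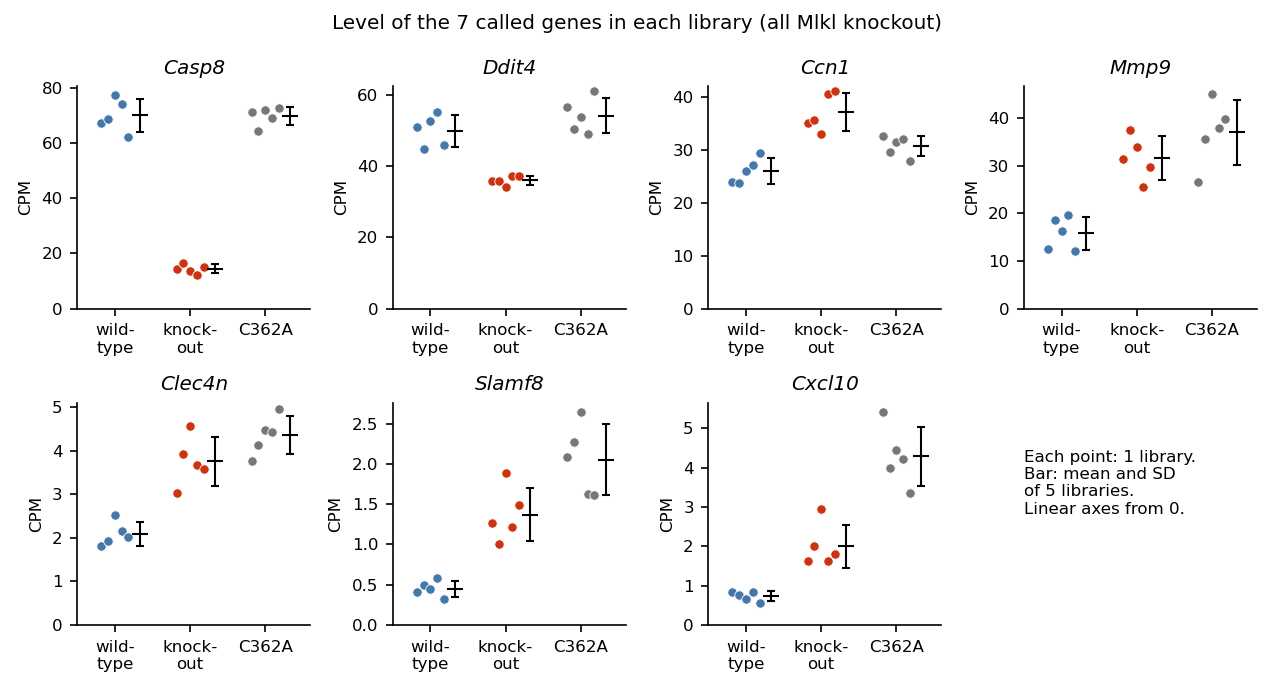
Level in CPM (vertical axis, linear from 0) of the 7 called genes in each of the 15 libraries, by genotype, with the mean and SD of 5 libraries beside the points. For Casp8 and Ddit4 all knockout libraries lie below all wildtype libraries, and for the other 5 genes all lie above.

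The interferon-stimulated genes, which cells switch on in response to interferon, were mostly slightly higher. Of 40 tested members 38 had a positive log2 fold change and the median was 0.23. Cxcl10 was the 1 member called, and 6 members (15%, against 2.43% of all tested genes) had an unadjusted p under 0.05, all higher. Ifi44 (1.55, SE 0.48) and Rsad2 (1.17, SE 0.41), which encode antiviral proteins, had large differences with wide spread. Rsad2 was at 2.33, 5.63, 2.70, 1.56 and 6.25 CPM in knockout and at 1.16, 1.92, 1.84, 2.45 and 0.879 CPM in wildtype, so knockout replicates 2 and 5 were high and the groups overlapped. Ifih1, the RNA sensor MDA5, was at 0.23 (SE 0.11). The list's median was 0.13 without knockout replicate 2 and 0.49 without wildtype replicate 4, the ends of its range over the 10 fits without 1 library, and its summed level was 379 to 540 CPM in knockout and 310 to 531 CPM in wildtype.

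The guanylate-binding and immunity-related GTPases, which interferon gamma induces and which attack intracellular pathogens, had 12 of 16 members positive and a median of 0.17, which was 0.08 without wildtype replicate 5 or knockout replicate 2. None was called by edgeR, and 3 (18.75%, against 2.43% of all tested genes) had an unadjusted p under 0.05, all higher. They were Igtp (0.31, SE 0.12), Irgm1 (0.18, SE 0.08) and Iigp1 (0.65, SE 0.29). Class I antigen presentation genes, also inducible by interferon, had a median of 0.01 over 21 members, with 0 called. Of 33 NF-kB targets and cytokines, 23 were positive, 0 were called by edgeR and the median was 0.09 (0.07 to 0.14 without 1 library). The chemokine gene Ccl12 had the smallest p among them (1.36, SE 0.27, adjusted p = 0.157) and passed in DESeq2 (adjusted p = 0.0177), but its counts were identical in every library to those of an unnamed gene ID, so its reads could belong to either. Tnfaip2 (0.46, SE 0.17, and 0.28 without knockout replicate 5), the adhesion molecule Vcam1 (0.35, SE 0.16) and the macrophage growth factor Csf1 (0.16, SE 0.07) also had an unadjusted p under 0.05.

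Slamf8 and Clec4n are myeloid genes, and in bulk tissue more cells of a type and more RNA per cell cannot be told apart. Of 30 macrophage and monocyte markers 23 were positive, 2 were called and the median was 0.11, with 0.07 without wildtype replicate 5 and 0.16 without knockout replicate 4. At an unadjusted p under 0.05 there were 7 higher, the 2 called among them, and 1 lower. That is 26.7% of a list drawn up with earlier results of these data known, against 2.43% of all tested genes. The list includes Slamf8, Clec4n, Spic, Mgl2 and Adgre1, all called in C362A against the same wildtype libraries. Their presence can raise the list's share, so it is not a fair comparison with all tested genes. Some abundant markers, named after their values were seen, had smaller values than the 2 called genes. Csf1r, the receptor for macrophage growth factor, was at 73.4 to 108 CPM in knockout and 54.0 to 128 CPM in wildtype (0.15, SE 0.21, and 0.09 without knockout replicate 5). Cx3cr1 (0.09, SE 0.09) and the complement gene C1qb (0.07, SE 0.09) had 95% intervals of -0.10 to 0.29 and -0.12 to 0.27. The summed level of all 30 markers was 430 to 566 CPM in knockout and 400 to 584 CPM in wildtype.

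Some less abundant macrophage genes had larger values that did not pass in edgeR's test. Adgre1, which encodes F4/80, was at 11.5, 12.3, 15.3, 8.51 and 14.4 CPM in knockout and 8.76, 9.22, 7.59, 9.38 and 7.65 CPM in wildtype (0.54, SE 0.13, adjusted p = 0.8). Knockout replicate 4 lay inside the wildtype range, and without that library Adgre1 passed at an adjusted p of 0.048. Spic, the regulator of red pulp and other iron-recycling macrophages, was at 1.20 (SE 0.27, adjusted p = 0.42) with no overlap between the groups. The scavenger receptor gene Marco was at 2.20 (SE 0.54, adjusted p = 0.867) with knockout values from 0.499 to 5.14 CPM, and DESeq2 called it at an adjusted p of 0.0177. Cd163, the haemoglobin scavenger receptor, pointed the other way at -0.87 (SE 0.38), and Ms4a7 was at 0.81 (SE 0.33). The costimulatory gene Cd86 (0.55, SE 0.13) and the inhibitory lectin Siglece (0.69, SE 0.17) did not overlap between groups but had adjusted p-values of 0.7 and 0.89. Siglech, a marker of plasmacytoid dendritic cells, was lower at -1.27 (SE 0.30, adjusted p = 0.7) from 9 to 16 counts per knockout library.

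All 17 tested neutrophil markers were positive, with a median of 0.57, but Mmp9 was the 1 called. The granule genes S100a8 (0.57, SE 0.65) and S100a9 (0.57, SE 0.69) had intervals reaching from -0.83 and -0.91 to 1.97 and 2.05. Prtn3, a serine protease of granulocyte precursors, was at 0.67 (SE 0.27). Their sum was 50.2 to 117 CPM in knockout and 29.1 to 72.1 CPM in wildtype, and without Mmp9 it was 24.8 to 82.9 CPM and 17.1 to 52.4 CPM. The median was 0.24 without knockout replicate 3 and 0.79 without knockout replicate 4. Mmp9 did not follow the sum of the other neutrophil markers in every library. Knockout replicate 4 had 24.8 CPM of the others, within the wildtype range, but 25.4 CPM of Mmp9, against at most 19.6 CPM in wildtype. C362A replicates 4 and 5 had 108 and 21.6 CPM of the others, with Mmp9 at 38.0 and 39.8 CPM. Of 19 erythroid markers 18 were positive, with a median of 0.63, 0 called and 0 at an unadjusted p under 0.05. That median was 0.32 without knockout replicate 4 and 0.21 when only genes of at least 5 CPM in 5 libraries were kept. Klf1, the master regulator of red cell genes, was at 0.71 (SE 0.34). The erythroid sum was 1913 to 4916 CPM in knockout and 2284 to 5792 CPM in wildtype. Within the knockout, the erythroid sum was highest (4916 CPM) in replicate 4, which had the lowest macrophage (430 CPM) and neutrophil (50.2 CPM) sums. It was nearly as high (4682 CPM) in replicate 3, which had the highest macrophage (566 CPM) and neutrophil (117 CPM) sums. The part of blood cell content in the myeloid results was not tested. The formyl peptide receptor Fpr2 of phagocytes was at 1.71 (SE 0.36, adjusted p = 0.282), and the ferroxidase ceruloplasmin gene Cp at 0.94 (SE 0.19, adjusted p = 0.157). DESeq2 called both, at adjusted p-values of 0.0177 and 0.0023.

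Ccn1 (Entrez 16007), which encodes the secreted matrix protein CYR61, a classic target of the Hippo pathway effector YAP, rose by a modest amount. It was at 35.1, 35.6, 32.9, 40.6 and 41.2 CPM in knockout and at 23.9, 23.7, 25.9, 27.2 and 29.4 CPM in wildtype. The groups did not overlap, and the log2 fold change was 0.51 (SE 0.08, 95% interval 0.34 to 0.69, adjusted p = 0.0308), called in 4 of 15 fits without 1 library. Of 34 YAP targets and immediate early genes, 17 were positive and the median was 0.00, and 4 members on each side had an unadjusted p under 0.05. Both sides together made 23.5% of the list, against 2.43% of all tested genes. Ccn2, the close relative of Ccn1 that encodes CTGF, was at 0.30 (SE 0.08) and overlapped by 1 wildtype library. Lats2, a Hippo kinase that YAP induces, was at 0.24 (SE 0.10) with no overlap. The immediate early genes Btg2 (-0.14, SE 0.05) and Junb (-0.30, SE 0.12) pointed the other way.

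Ddit4 (Entrez 74747) encodes REDD1, an inhibitor of mTORC1 that hypoxia, glucocorticoids and the integrated stress response induce. It was at 35.8, 35.7, 34.2, 37.2 and 37.2 CPM in knockout, a narrow band, and at 51.0, 44.8, 52.5, 55.1 and 45.8 CPM in wildtype. It fell by 0.47 on the log2 scale (SE 0.07, 95% interval -0.63 to -0.31, adjusted p = 0.0276) with no overlap, and was called in 6 of 15 fits without 1 library. No other member of its stress lists was called. Of 28 integrated stress response genes 21 were positive and the median was 0.09, with 0.04 without knockout replicate 4: the asparagine synthetase gene Asns was at 0.42 (SE 0.19) and the cysteine tRNA synthetase gene Cars at 0.22 (SE 0.10). Of 31 hypoxia and glycolysis genes 17 were positive with a median of 0.01. Ankrd37, a target of the hypoxia-inducible factor, was at 7.47, 6.12, 7.29, 9.32 and 5.47 CPM in knockout and 15.1, 9.0, 13.6, 16.6 and 9.25 CPM in wildtype (-0.83, SE 0.21), with 2 wildtype libraries within the knockout range, and did not pass. In the unfolded protein response list (18 of 24 positive, median 0.06, 0 called), the chaperone gene Hspa5 (0.21, SE 0.10) and the disulfide isomerase gene Pdia4 (0.20, SE 0.09) did not overlap between groups.

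None of the partners of caspase-8 passed the test, and most were tightly bounded. On the RPKM scale per transcript length, wildtype levels were 20.7 for Ripk3, 18.4 for Tradd, 12.4 for Fadd, 7.61 for Ripk1, 4.59 for Cflar and 0.196 for Mlkl, against 22.5 for Casp8 itself. Log2 fold changes were 0.03 for Cflar (95% interval -0.13 to 0.20), -0.00 for Fadd (-0.16 to 0.16), 0.04 for Ripk1 (-0.10 to 0.18) and -0.05 for Ripk3 (-0.23 to 0.12), so changes of 1.5-fold lay outside all 4 intervals. Mlkl, knocked out in both groups, had 13 to 26 counts per knockout library and 11 to 24 per wildtype library. Of 22 genes of the caspase-8 complexes 11 were positive, and Casp8 alone was called. The inhibitor of apoptosis gene Birc3 was at 0.15 (SE 0.09) and the adaptor Tradd at -0.11 (SE 0.08).

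No other death gene was called. Of 26 death receptors and ligands 14 were positive, with a median of 0.01 and 0 called. The endotoxin receptor gene Tlr4 was at 0.48 (SE 0.19). In the BCL2 family (20 tested, median -0.04) Bcl2l14 was at -0.43 (SE 0.15), and among 23 apoptosome and caspase genes (median -0.00) the caspase substrate Gas2 was at 0.26 (SE 0.12), and at 0.13 without knockout replicate 5. Inflammasome and pyroptosis genes, 28 tested, had 17 positive, a median of 0.04, 0 called and 0 at an unadjusted p under 0.05. Their sensors Nlrp3 (0.25, SE 0.22), Aim2 (-0.27, SE 0.23) and Mefv (0.76, SE 0.39) had wide intervals at these low levels.

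**Figure D3:**
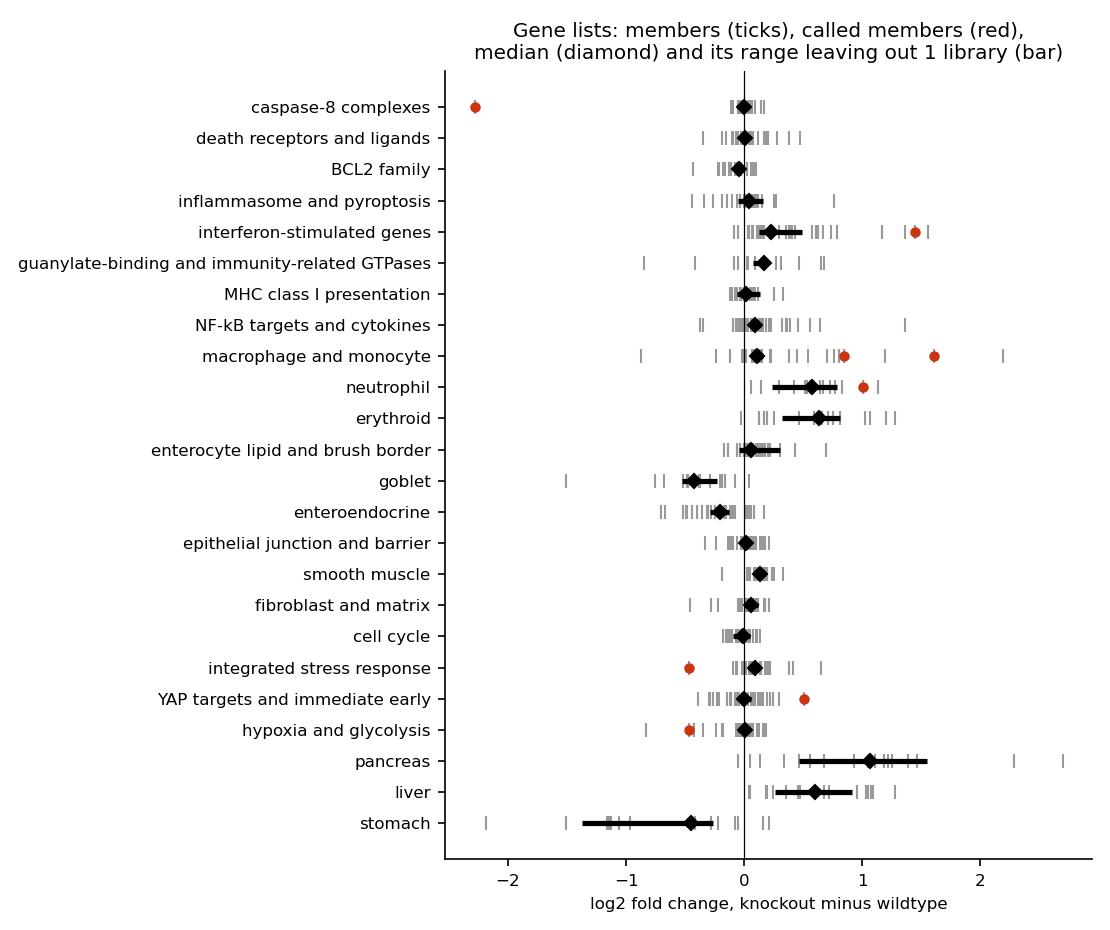
Log2 fold change of knockout minus wildtype (horizontal axis) for the members of 24 gene lists (grey ticks), with called members in red, the list median as a diamond and the range of that median over the 10 fits without 1 knockout or wildtype library as a bar. Most medians lie near 0, while goblet (-0.43) lies to the left and neutrophil (0.57), erythroid (0.63) and pancreas (1.06) to the right with wide bars.

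Secretory genes of the epithelium were mostly lower without any call. Of 18 tested goblet cell genes 17 were negative and the median was -0.43. An unadjusted p under 0.05 was found for 6 (33.3%, against 2.43% of all tested genes), all lower. Ern2, the goblet cell form of the stress sensor IRE1, was at 12.7, 11.8, 12.6, 10.3 and 10.5 CPM in knockout and 12.8, 15.1, 15.9, 18.8 and 17.9 CPM in wildtype. The groups met without overlapping (-0.47, SE 0.11, adjusted p = 0.7). The transcription factor Creb3l4 was at -0.48 (SE 0.15), Spink4 at -0.51 (SE 0.20), the disulfide isomerase Agr2 at -0.48 (SE 0.20), the goblet cell regulator Spdef at -0.29 (SE 0.13) and the mucin glycosyltransferase Galnt12 at -0.21 (SE 0.09).

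The mucin gene Muc2 was at 29.3, 31, 40.9, 23.2 and 30.0 CPM in knockout and 17.6, 42.4, 52.9, 87.3 and 47.6 CPM in wildtype (-0.68, SE 0.34). Wildtype replicate 1 had the lowest level of all 10 libraries and wildtype replicate 4 the highest. Tff3 (-0.37, SE 0.21) and Atoh1, which commits cells to the secretory lineage (-0.38, SE 0.19), also had intervals that included 0. The goblet median was -0.53 without wildtype replicate 1 and -0.23 without wildtype replicate 4. The summed level was 2020 to 2651 CPM in knockout, within the wildtype range of 1712 to 3451 CPM.

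Of 27 enteroendocrine genes 20 were negative, with a median of -0.20 (-0.29 without knockout replicate 4, -0.13 without wildtype replicate 4). None was called, and for 5 lower genes (18.5%, against 2.43% of all tested genes) the unadjusted p was under 0.05. They were the hormone genes Cck (-0.44, SE 0.17) and Gcg (-0.36, SE 0.16), the serotonin enzyme Tph1 (-0.67, SE 0.27), the transcription factor Pax6 (-0.48, SE 0.21) and the granule protein Chga (-0.31, SE 0.14). Pax6 was at 1.15, 1.58, 1.11, 1.68 and 0.989 CPM in knockout and 1.73, 1.86, 1.76, 1.54 and 2.18 CPM in wildtype, with 1 wildtype library inside the knockout range.

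No absorptive or structural gene of the epithelium was called. Of 39 enterocyte genes 31 were positive but the median was 0.06, from -0.04 without wildtype replicate 1 to 0.30 without wildtype replicate 4, with 0 called; the peptidase Enpep was at 0.30 (SE 0.10) and the endocytic receptor Lrp2 at 0.70 (SE 0.32). In the junction and barrier list (34 tested, median 0.01, 0 called) Cldn4, a tight junction claudin, was at -0.34 (SE 0.09) and Cldn23 at -0.24 (SE 0.10). Sox9, a factor of stem and progenitor cells, was at -0.18 (SE 0.08) and Klf4, a factor of goblet and surface cells, at -0.26 (SE 0.12). Cell cycle genes, 40 tested, had a median of -0.01, 0 called and 0 at an unadjusted p under 0.05, and all 40 were bounded within 2-fold.

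Smooth muscle genes were mostly positive, without a call. Of 23 smooth muscle genes 22 were positive, the median was 0.13, and 4 (17.4%, against 2.43% of all tested genes) had an unadjusted p under 0.05. They were the contractile genes Myh11 (0.23, SE 0.08) and Mylk (0.19, SE 0.09), the integrin Itga8 (0.33, SE 0.13) and the actin-binding Synpo2 (0.23, SE 0.10). None was called, and the median was 0.10 to 0.17 in the fits without 1 library. Of 16 skeletal muscle genes 10 were negative, the median was -0.20 and 0 were called. Over all 53 lists, 47 medians lay within 0.25 of 0 and 34 within 0.1. The exceptions were the goblet, neutrophil and erythroid lists and those of 3 neighbouring organs.

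Transcripts of neighbouring organs varied widely among libraries of both genotypes. Of 18 tested pancreas genes 17 were positive with a median of 1.06, all 17 liver genes were positive with a median of 0.60, and 13 of 15 stomach genes were negative with a median of -0.45. None of these was called. The pancreas median was 0.47 without knockout replicate 5 and 1.55 without wildtype replicate 5, the liver median 0.26 without knockout replicate 3 and 0.91 without wildtype replicate 2, and the stomach median -1.38 without knockout replicate 2 and -0.27 without knockout replicate 1. The summed pancreas level had a median of 318 CPM in knockout and 317 CPM in wildtype. The insulin gene Ins2 was at 0.253, 2.01, 0, 3.40 and 3.10 CPM in knockout and 0.202, 0.110, 0.536, 0.163 and 0.320 CPM in wildtype (2.70, SE 0.97), the stomach gene Gkn3 was at -2.18 (SE 0.75), and Afp, made by fetal liver and yolk sac, at 0.72 (SE 0.36). Ren1, the renin gene, had among the largest differences at 2.18 (SE 0.91), with 29.8 CPM in knockout replicate 5 against 0.816 to 2.33 CPM in the other knockout libraries, and it was -0.15 without that library. Its counts were identical in every library to those of another unnamed gene ID, so its reads could belong to either. Serpina6, the cortisol-binding globulin (1.63, SE 0.67), and Hoxb13, a gene of the hindmost gut (-1.55, SE 1.21), were also large and did not pass.

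Genes beside Casp8 were examined because the 2 genotypes differ there by construction. Of 100 tested genes within 10 Mb of Casp8, none was called, 66 were positive, the median was 0.04 and 97 were bounded within 2-fold. The nearest tested neighbours were Cflar, at -83.9 kb from Casp8 (0.03), and Trak2, at 105 kb on the other side (0.12, SE 0.09). At an unadjusted p under 0.05 there were 3, all higher, which is 3% against 2.43% of all tested genes in either direction. They were Coq10b (0.29, SE 0.10), needed for coenzyme Q function, the imprinted gene Zdbf2 (0.28, SE 0.12) and Plcl1 (0.24, SE 0.11). 

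**Figure D4:**
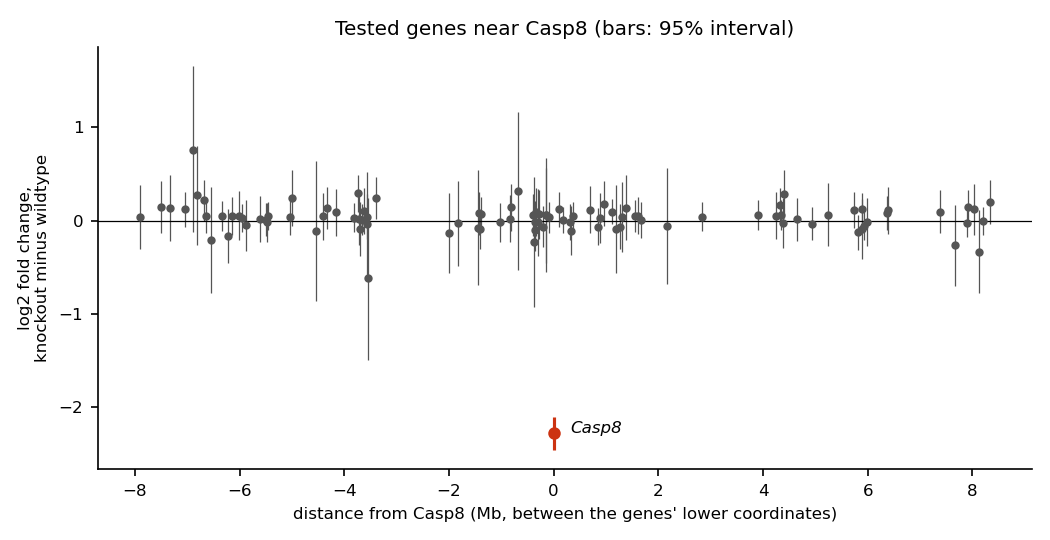
Log2 fold change of knockout minus wildtype with its 95% interval (vertical axis) for the tested genes within 10 Mb of Casp8, by distance in Mb (horizontal axis). Casp8 at -2.28 stands alone, and the 100 other genes scatter around 0.

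Casp8 C362A replaces the catalytic cysteine, so this allele leaves an inactive protease in place. C362A against knockout called 2 genes (0.0109% of those tested). Casp8 was the first, at 69.9 ± 3.41 CPM in C362A. Ddit4 was the second, at 56.5, 50.3, 53.7, 48.9 and 61.1 CPM in the 5 C362A libraries, all above all knockout libraries (0.59, SE 0.07, adjusted p = 0.00374). DESeq2 called 26 genes in that contrast, and the 2 tools differ in how many they call there.

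Against wildtype, 15 genes were called in C362A (0.0817%), and their values are set beside those of the knockout with the shared wildtype libraries in mind. Cxcl10 was at 2.54 (SE 0.20) in C362A and 1.45 in knockout, Slamf8 at 2.18 and 1.61, Mmp9 at 1.23 and 1.0, and Clec4n at 1.06 and 0.84. The direct difference of C362A from knockout had an adjusted p of 0.11 for Cxcl10, 0.317 for Slamf8, 0.495 for Mmp9 and 0.462 for Clec4n. Ccn1 was at 0.24 in C362A and 0.51 in knockout, with an adjusted p of 0.317 for the difference.

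The 10 named genes that were called in C362A and not in the knockout all had smaller positive values in the knockout. Picking genes by that rule favours smaller values in the knockout, and the shared wildtype libraries favour the same sign. The lectin Mgl2 was at 1.87 and 0.76, Spic at 2.01 and 1.20, the serpins Serpina3f at 2.24 and 1.03 and Serpina3g at 1.5 and 0.50, the cytokine receptor chain Il2rg at 0.75 and 0.39, the antiviral deaminase Apobec3 at 0.56 and 0.22, Adgre1 at 0.75 and 0.54, the endothelial adhesion molecule Madcam1 at 0.64 and 0.21, the nuclease Dnase1l3 at 1.30 and 0.93 (knockout adjusted p = 0.42 in edgeR, 0.0177 in DESeq2) and Ccl12 at 1.65 and 1.36. None of these passed the test of the difference between the alleles, where the smallest adjusted p was 0.186 for Mgl2.

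**Figure D5:**
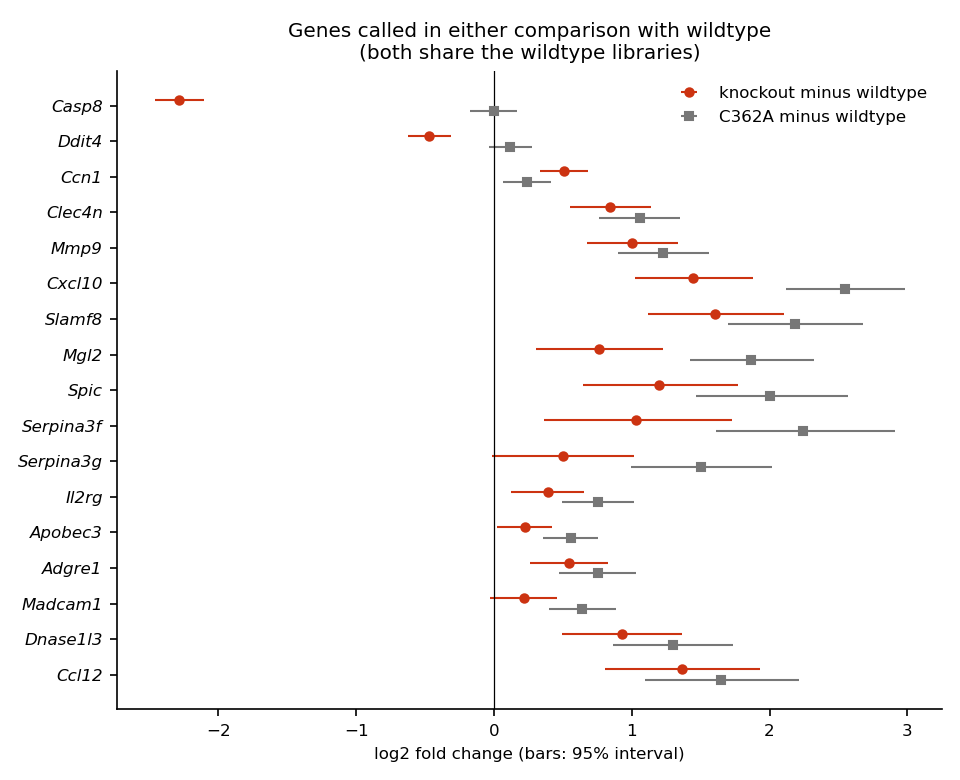
Log2 fold change against wildtype with its 95% interval (horizontal axis) for 17 genes called in either comparison, in knockout (red circles) and in C362A (grey squares), which share the wildtype libraries. Casp8 and Ddit4 are low in the knockout and near 0 in C362A, and most other genes are positive in both.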

How the data were processed

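Poly(A) RNA libraries were made with a TruSeq v2 kit, which does not mark strand, and read as single 50 bp ends on a HiSeq4000, per the labels' protocols. Reads were aligned with GSNAP to GRCm38, per the submitters' processing notes. The version of the aligner and the annotation are not given in the sources. The deposited counts are reads aligning uniquely to a gene model, per the file headers, which lowers genes with near-identical copies. The authors deposited RPKM with a size-factor adjustment, per the file headers; they serve here only for levels per length. Of 36528 Entrez IDs, 31049 were named from RefSeq (GRCm38.p6) and 78 from GENCODE.

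All 15 libraries (31896399 to 38532127 counts) entered 1 edgeR 4.0.16 quasi-likelihood fit (R 4.3.3; TMM; filterByExpr with minimum count 10 and minimum total 15; robust), with 1 mean per genotype and adjusted p under 0.05 as the call. CPM are TMM-scaled, and the SE and 95% interval follow from the same fit. No 2 libraries of a genotype matched within sampling noise (chi-square per gene 10.7 to 138), so each counted as 1 sample. Replicates are numbered in accession order and pair nothing. The script was tested on simulated data. Alternatives included other scalings and filters, DESeq2 1.42.0, limma-voom (limma 3.58.1), each library left out, and terms for Y-linked expression and for the sample ID numbers, which go through the genotypes in 2 passes.

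The comparison and the gene lists were chosen with earlier results of these data known. Lists are described by counts and medians, with no set test. Named are the called genes, the 20 smallest p-values, the 3 smallest p in each list, the genes called in C362A, the neighbours of Casp8, the largest differences and the core partners of Casp8; further list members were chosen after their values were seen.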

Additional observations from a re-analysis of the deposited data

Results flagged for a closer look

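Over 50 groups of 5 libraries (the knockout and wildtype values of 25 genes), Dixon's test marked 2, and chance alone marks about 1 in 20 groups. Cp in knockout replicate 4 was 3.02 CPM, well under the next lowest knockout library at 5.31 CPM, a gap of 0.765 of the group's range. Siglech in knockout replicate 3 was 0.424 CPM, above the next at 0.309 CPM, a gap of 0.802 of a narrow range. The test of C362A against knockout itself passed for Casp8 (2.28, SE 0.08, adjusted p = 2.61e-11) and for Ddit4 (0.59, SE 0.07, adjusted p = 0.00374), with C362A higher in both; the tool for these adjusted p-values was edgeR.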

How the results depend on the processing

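The 7 calls were made again with RLE factors, with the 20 most abundant genes left out, with robust estimates off, with a term for the sample ID passes and by limma-voom, while library totals and no filter gave 6. The count was 2 with at least 5 CPM in 5 libraries, a filter under which Cxcl10, Slamf8 and Clec4n were too low to be tested. It was 3 with a term for Y-linked expression, 13 with DESeq2 and 1 at an adjusted p under 0.01. It was also 1 with only the knockout and wildtype libraries, and again with a term for the passes (this last was chosen after seeing the data). Without 1 library it was between 1 and 8. C362A against knockout gave 2 calls with edgeR and 26 with DESeq2; the planned fit without C362A cannot give that contrast. Casp8 was called in every fit run. The causes of the other changes in the count were not tested. Of 2764 gene values under an alternative, 64 lost and 7 gained a call. Signs turned 13 times, all for uncalled genes: for Fadd to 4.4e-05 with the Y-linked term, 0.0016 by limma-voom, 0.00046 with 10 libraries and the passes, and between -0.040 and 0.053 without 1 library; for Mlkl (-0.073 to 0.26), Cflar (-0.0046 to 0.071) and Ren1 (-0.15 to 2.47) without 1 library. List medians that moved by more than their spread were B cell (-0.23) and brown and white fat (0.0027) with no filter, skeletal muscle (0.13) with the stricter filter, and, without 1 library, apoptosome and caspases (-0.039 to 0.0078), stomach (-1.38 to -0.27), brown and white fat (0.083 to 0.29) and YAP targets and immediate early genes (-0.022 to 0.056). No paired analysis was possible because the labels carry no replicate numbers. Depth limits the low genes most: under 1 CPM, 44.8% had an interval within 2-fold.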

Other observations

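Within each of the 2 passes of sample ID numbers (2 and then 3 libraries per genotype), the 6 called genes other than Casp8 kept their direction. Their knockout and wildtype libraries did not overlap, so no split of these libraries could have turned it, and only the sizes are informative. The knockout minus wildtype difference in mean log2(CPM + 0.5), a scale that understates low genes, was 0.95 and 1.03 for Cxcl10, 0.90 and 1.01 for Slamf8, 1.21 and 0.86 for Mmp9, 0.68 and 0.73 for Clec4n, 0.61 and 0.43 for Ccn1 and -0.50 and -0.43 for Ddit4. The interferon genes Rsad2 (1.71 and 0.31) and Ifi44 (1.43 and 0.25) and the NF-kB target Tnfaip2 (0.84 and 0.11) had most of their difference in the first pass, which holds knockout replicates 2 and 5. For Muc2 (-0.00 and -0.88) and Tph1 (0.00 and -0.87) it lay in the second. These splits were not tested. Adss, an enzyme of purine synthesis, was at 0.35 in both passes and did not overlap between the groups, but had an adjusted p of 0.867 in edgeR's test over all genes.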
